A study of Mus musculus with 8 samples.

Results

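Transcripts of 9 genes that mark noradrenergic, serotonergic and cholinergic neurons were followed through 8 mouse cerebellum libraries. The members were taken by symbol from the count tables, and all 9 were found among the 17700 genes listed. The old mice were 4 C57BL/6JN animals aged 83 to 102 weeks, and the young mice 4 animals of that strain aged 19 to 22 weeks. Old 1 and old 3 were males and old 2 and old 4 females. Young 1 and young 2 were males and young 3 and young 4 females. Each library was made from total RNA of the frozen cerebellum of 1 animal after depletion of ribosomal RNA, and no treatment or transgene is named for either group.

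Noradrenergic fibres reach the cerebellum mainly from the locus coeruleus, a pontine nucleus beneath it, and serotonergic fibres from the raphe and reticular nuclei of the brainstem. Cholinergic fibres come largely from vestibular and pontine nuclei, and cholinergic motor neurons lie in the cranial nerve nuclei of the same region. The mRNAs of transmitter synthesis and transport are held mostly in the cell bodies of these neurons. In a bulk library, fewer cells of a type and less RNA per cell cannot be told apart.

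Counts totalled 6079485 to 7236720 per library, and a floor of 3 counts, which covers counting error only, lay at 0.420 to 0.511 CPM (counts per 1000000 of the TMM-adjusted total). The markers of the labelled tissue were high in all libraries, at summed levels of 5521 to 7450 CPM in old and 6327 to 8036 CPM in young mice for 11 Purkinje cell genes, and 3661 to 5150 CPM in old and 3960 to 6234 CPM in young mice for 10 granule neuron genes. Libraries stood apart in other tissues' markers. The sum of 7 liver genes reached 84.1 CPM in old 2, 23.6 CPM in old 3 and, of the young, 21.2 CPM in young 4, with 9.62 CPM or less in the other 5 libraries. That of 11 choroid plexus genes was low in old 3 (109 CPM), young 3 (141 CPM) and young 4 (85.5 CPM), and at least 537 CPM elsewhere. The 4 listed pituitary genes summed to 3.30 to 19.7 CPM in old and 2.48 to 4.23 CPM in young mice.

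The promoters of the enzyme genes Th, Dbh and Tph2 are shown because Th was even across the libraries while the other 2 were not. They are RefSeq windows of GRCm38.p6, 250 bases before to 50 after the start, found for 8 of the 9 members. The Th window lies at chr7:142899946-142900245 on the minus strand, the Dbh window at chr2:27165257-27165556 on the plus strand and the Tph2 window at chr10:115184973-115185272 on the minus strand. Capitals mark the cAMP response element TGACGTCA, which reads the same on both strands, and the TATA box letters TATAAA, sought on both strands.
Th: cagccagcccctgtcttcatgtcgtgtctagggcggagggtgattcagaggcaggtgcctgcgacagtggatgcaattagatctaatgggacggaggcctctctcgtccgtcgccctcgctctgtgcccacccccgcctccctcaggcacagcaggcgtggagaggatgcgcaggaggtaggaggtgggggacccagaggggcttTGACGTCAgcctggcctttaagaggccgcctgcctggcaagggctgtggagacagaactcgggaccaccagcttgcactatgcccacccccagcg
Dbh: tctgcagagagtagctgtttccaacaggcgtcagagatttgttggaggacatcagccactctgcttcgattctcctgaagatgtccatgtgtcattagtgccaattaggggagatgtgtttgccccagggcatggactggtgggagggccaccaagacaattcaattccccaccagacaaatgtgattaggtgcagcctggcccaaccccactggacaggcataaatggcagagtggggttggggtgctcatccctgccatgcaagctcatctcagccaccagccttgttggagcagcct
Tph2: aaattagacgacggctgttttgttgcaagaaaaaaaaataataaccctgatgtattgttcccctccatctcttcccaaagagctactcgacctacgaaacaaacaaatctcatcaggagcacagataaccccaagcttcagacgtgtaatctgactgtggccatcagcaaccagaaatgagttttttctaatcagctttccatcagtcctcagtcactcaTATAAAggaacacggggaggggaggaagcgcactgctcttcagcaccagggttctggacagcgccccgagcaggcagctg
The Th window held the cAMP response element 45 bases before the start, letters found in 1.79% of all 32851 promoter windows in the table. TATAAA stood 30 bases before the start in Tph2, and 13.6% of all windows held these letters or their reverse complement. The Dbh window held neither, and no match says only that these letters are not in this window. The 2 motifs do not overlap in these windows.

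The noradrenergic transcripts Slc6a2 and Dbh varied widely among mice of either age. Slc6a2 encodes the noradrenaline transporter. It had 20.5, 7.33, 1.26 and 3.47 CPM in old 1 to old 4, against 38.7, 20.7, 3.23 and 0.140 CPM in young 1 to young 4. The underlying counts were 128, 51, 8 and 22 in old mice, against 250, 132, 19 and 1 in young mice. Young 1, young 2 and old 1 were high, young 4 was at a single read, and the ages overlapped throughout.

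Dbh, dopamine beta-hydroxylase, converts dopamine to noradrenaline and marks noradrenergic and adrenergic neurons. It had 9, 8, 0 and 2 counts in old mice, against 36, 24, 3 and 0 counts in young mice, or at most 1.44 CPM in old and 5.58 CPM in young libraries. Young 1, young 2 and old 1, the libraries richest in Slc6a2, also held the most Dbh, but old 1 had 9 counts beside 8 in old 2. Over the 8 libraries the log2 CPM values of the pair had a Pearson r of 0.94 (exact permutation p = 0.000546, 0.0115 after adjustment over 21 pairs of members) and a Spearman rho of 0.97 (exact permutation p = 0.000595, adjusted 0.0125). Without the 2 libraries farthest from the median of Slc6a2, r was 0.94 over 6 libraries. There were 14.2 counts of Slc6a2 for each of Dbh in old 1 (95% exact counting interval 7.26 to 31.8), 6.94 in young 1 (4.88 to 10.1) and 5.50 in young 2 (3.54 to 8.89).

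Phox2a, a homeobox factor that specifies noradrenergic neurons, stayed under the floor of 3 counts in all 8 libraries, with 2, 2, 1 and 1 counts in old mice, against 1, 1, 2 and 0 counts in young mice. Its counts were too few to show whether it followed the other members, and a difference between ages was not detectable at this depth.

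The serotonergic genes were high in a narrower set of libraries. Tph2, tryptophan hydroxylase 2, is the first enzyme of serotonin synthesis in neurons. Its level was 18.9, 1.01, 0.785 and 1.26 CPM in old 1 to old 4, against 0.775, 10.3, 0.511 and 1.54 CPM in young 1 to young 4. Old 1 and young 2, both males, held 118 and 66 counts, and no other library held more than 11. Slc6a4, the serotonin transporter, followed the same libraries with 49, 0, 2 and 0 counts in old mice, against 0, 23, 0 and 0 counts in young mice. There were 2.41 counts of Tph2 for each of Slc6a4 in old 1 (95% exact counting interval 1.71 to 3.43) and 2.87 in young 2 (1.76 to 4.83), and these intervals overlap. The Pearson r of the pair was 0.95 over 8 libraries (exact permutation p = 0.0119, adjusted 0.0417), Spearman's rho was 0.63 (exact permutation p = 0.113, adjusted 0.339) and r was -0.22 without the 2 libraries farthest from the median of Tph2. That relation rests on old 1 and young 2.

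Noradrenergic and serotonergic transcripts did not stand in a fixed ratio. Young 1 had the highest Slc6a2 of the 8 libraries and a Tph2 of 5 counts, a ratio of 50 (95% exact counting interval 21.1 to 155). The ratio was 1.08 in old 1 (0.838 to 1.41) and 2 in young 2 (1.48 to 2.73). In young 4 it was 0.0909 (0.00211 to 0.625), from 1 count of Slc6a2 and 11 of Tph2. The correlation of Slc6a2 with Tph2 did not pass (Pearson r = 0.43, exact permutation p = 0.277, adjusted 0.448; Spearman rho = 0.14, exact permutation p = 0.752, adjusted 0.882), although r was 0.88 over the 6 libraries left without the 2 farthest from the median of Slc6a2.

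**Figure D1:**
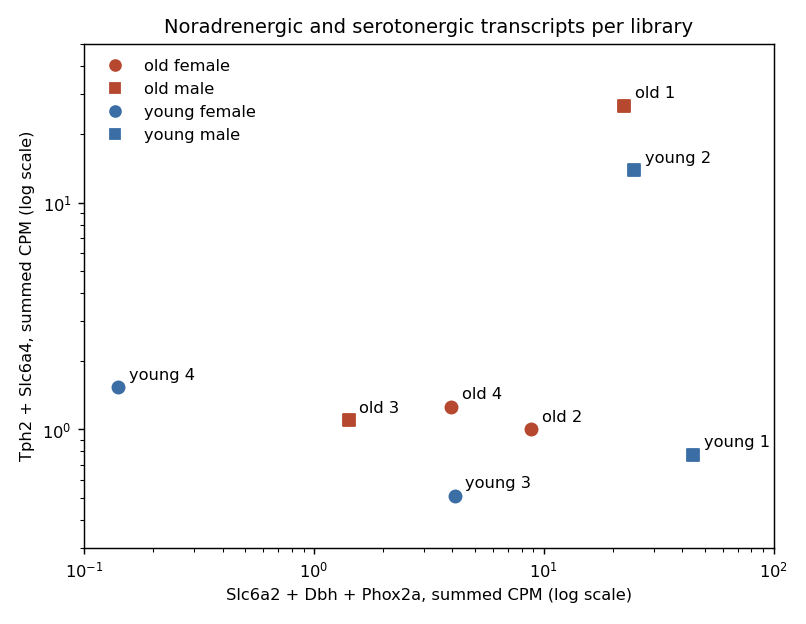
Summed CPM of Slc6a2, Dbh and Phox2a (x axis) against summed CPM of Tph2 and Slc6a4 (y axis), both on log scales, with 1 point per library. Old 1 at 22.3 and 26.8 CPM and young 2 at 24.6 and 13.9 CPM are high on both axes, while young 1 is at 44.5 CPM on the x axis and 0.775 CPM on the y axis.

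Of the cholinergic and motor genes, Slc5a7 and Prph were high in old 1, young 1 and young 2, while Chat was low throughout. Slc5a7, the high-affinity choline transporter, had 12.3, 1.29, 0.314 and 2.05 CPM in old mice, against 3.25, 7.20, 1.53 and 0.140 CPM in young mice. Chat, choline acetyltransferase, had 10, 3, 0 and 1 counts in old mice, against 2, 5, 0 and 0 counts in young mice, highest in old 1 and young 2. Prph, the intermediate filament peripherin of motor, sensory and autonomic neurons, had 3.53, 1.01, 0.471 and 0.630 CPM in old mice, against 3.56, 2.51, 0.511 and 0.561 CPM in young mice. Old 1, young 1 and young 2 thus held the 3 highest values of Slc5a7 and of Prph.

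Slc6a2 and Prph moved together over the 8 libraries (Pearson r = 0.88, exact permutation p = 0.00248, adjusted 0.0260; Spearman rho = 0.90, exact permutation p = 0.00456, adjusted 0.0424; r = 0.95 without the 2 farthest libraries). Slc6a2 and Slc5a7 had a Pearson r of 0.87 (exact permutation p = 0.00536, adjusted 0.0281), with a Spearman rho of 0.83 that did not pass after adjustment (exact permutation p = 0.0154, adjusted 0.0807) and r of 0.93 without the 2 farthest. Dbh with Prph also passed by both measures (Pearson r = 0.88, exact permutation p = 0.00412, adjusted 0.0281; Spearman rho = 0.89, exact permutation p = 0.00605, adjusted 0.0424; r = 0.76 without the 2 farthest). Values of all members in a library share its depth and its dissection.

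Chat lies on chromosome 14 at 32408203 to 32465989 of GRCm38 and encloses Slc18a3, the gene of the vesicular acetylcholine transporter, on the same strand, so reads of the 2 may be shared. The gene model Gm2990 overlaps Chat on the other strand. Slc18a3 had 7, 2, 1 and 1 counts in old mice, against 2, 13, 3 and 0 counts in young mice. Slc6a4 (chromosome 11, 76998603 to 77032340) overlaps the antisense gene model Gm12343 and Phox2a (chromosome 7, 101818313 to 101822726) overlaps Inppl1 on the other strand, and the strand setting of the counting is not given in the sources used here. No other annotated gene overlaps Slc6a2 (chromosome 8, 92960079 to 93001667), Dbh (chromosome 2, 27165233 to 27183200), Th (chromosome 7, 142892752 to 142931128), Tph2 (chromosome 10, 115078641 to 115185022), Slc5a7 (chromosome 17, 54273590 to 54299034) or Prph (chromosome 15, 99055174 to 99058978). All 9 are annotated as protein-coding.

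Th, tyrosine hydroxylase, is the first enzyme of catecholamine synthesis and works upstream of Dbh, yet it did not share the pattern. Its level was 6.73, 5.32, 7.85 and 4.41 CPM in old mice, against 5.58, 5.32, 5.62 and 5.05 CPM in young mice. Young 4, with 1 count of Slc6a2 and none of Dbh, had 36 counts of Th, and young 1, with 250 of Slc6a2, also had 36. The coefficient of variation of Th over the 8 libraries was 18.7%, against 86.1% to 195% for the other 6 tested members and a median of 22.6% over the 2692 tested genes whose total count lay within 2-fold of that of Th. The Pearson r of Th with Slc6a2 was 0.04 (exact permutation p = 0.928, adjusted 0.974; Spearman rho = 0.07, exact permutation p = 0.882, adjusted 0.882; r = -0.20 without the 2 farthest) and with Dbh -0.13 (exact permutation p = 0.774, adjusted 0.903; Spearman rho = 0.12, exact permutation p = 0.779, adjusted 0.882; r = -0.05 without the 2 farthest from the median of Dbh). A brainstem name is therefore not borne out for Th by these values. Nor do the values of Th give backing to the name noradrenergic for Slc6a2 and Dbh, and Phox2a had too few counts to do so. In mice, Th transcripts are also known in some Purkinje cells of the cerebellum itself.

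**Figure D2:**
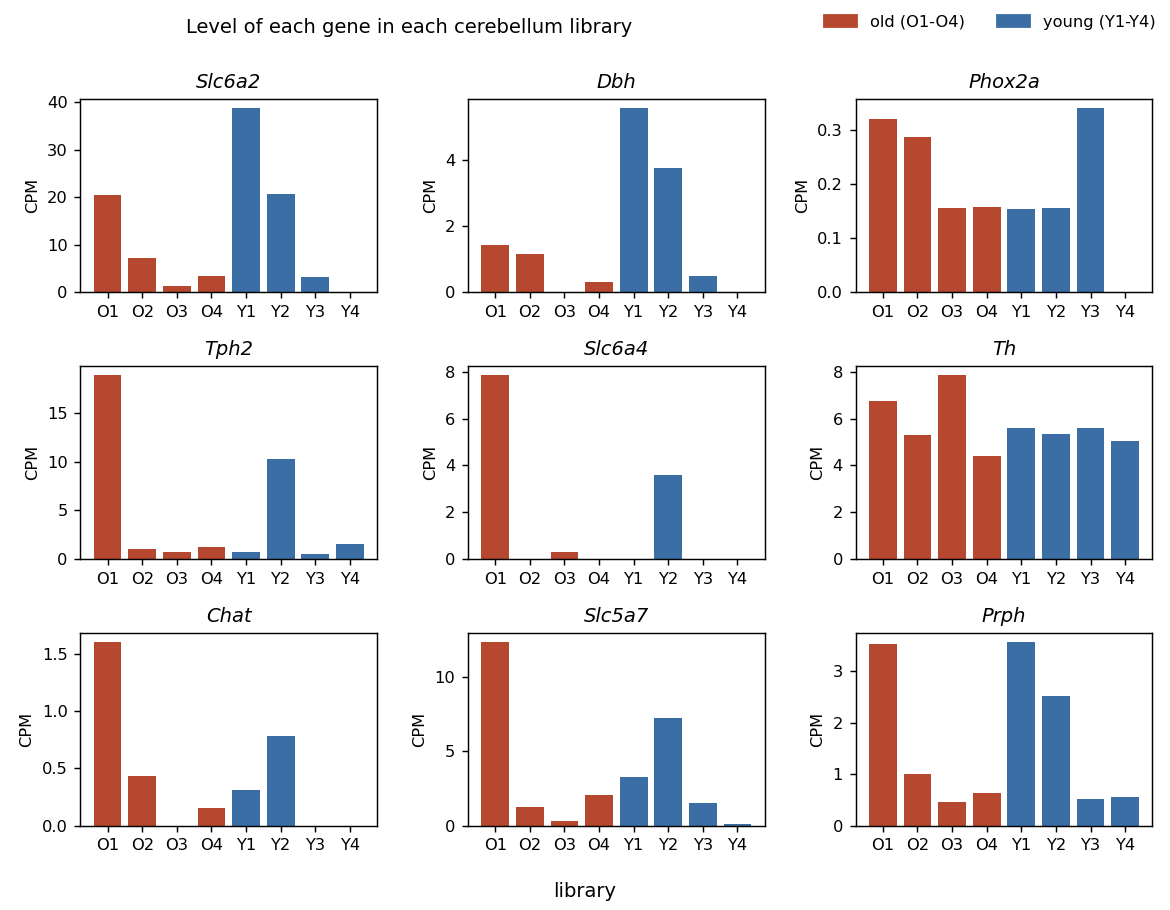
CPM of each of the 9 genes in old 1 to old 4 (O1 to O4) and young 1 to young 4 (Y1 to Y4), with a bar per library and a scale of its own for each gene. Slc6a2 and Prph peak in O1, Y1 and Y2, Dbh in Y1 and Y2, and Tph2 and Slc6a4 in O1 and Y2. Th lies between 4.41 and 7.85 CPM in all 8 libraries.

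Per kilobase of the longest annotated transcript, Th had the highest mean level of the 9 genes, 2.94 ± 0.55 CPM per kilobase (SD, n = 8 libraries). Slc6a2 followed at 1.93 ± 2.19 and Tph2 at 1.67 ± 2.56 CPM per kilobase (SD, n = 8 each). Prph, Slc5a7, Dbh and Slc6a4 had means of 0.857, 0.679, 0.625 and 0.526 CPM per kilobase. Chat and Phox2a were lowest, at 0.144 and 0.122 CPM per kilobase. Every pair of neighbours in this order differed by less than the larger of their SDs over the libraries.

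No member passed the test of old against young. Of 14191 genes tested over the whole table by edgeR's quasi-likelihood test with a term for sex, 17 passed an adjusted p of 0.05, or 0.12%. The filter on low counts kept 7 of the 9 members and left out Chat and Phox2a, and 0 of the 7 passed. None of them had an unadjusted p under 0.05, which 11% of all genes tested had, and none passed by DESeq2's Wald test. The old and young values overlapped for all 7, while 6.57% of all genes tested had no overlap. The log2 fold changes of the 7, old minus young, were positive for 4 and negative for 3, with a median of 0.17 beside -0.0056 over all genes tested.

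Dbh averaged 0.727 ± 0.680 CPM in old and 2.46 ± 2.66 CPM in young mice (SD, n = 4 each), a log2 fold change of -1.64 ± 0.79 (SE, adjusted p = 0.475 by edgeR's quasi-likelihood test). The Dbh estimate was -0.68 by DESeq2 and -0.83 without old 3. Its unadjusted p by edgeR was under 0.05 without old 2 (0.00729), without young 4 (0.0168) and without old 2, old 3 and young 4 together (0.00668), and its adjusted p was 0.191 to 0.370 in these fits. Old 2 had 8 counts of Dbh and young 4 had 0, so leaving out either widens the gap between the ages. Old 2, old 3 and young 4 had the highest sums of liver genes. Without them, old 1 and old 4 remained beside young 1, young 2 and young 3. Slc6a2 averaged 8.14 ± 8.62 CPM in old and 15.7 ± 17.8 CPM in young mice (SD, n = 4 each), with a log2 fold change of -0.72 ± 0.95 (SE, adjusted p = 0.825 by edgeR). The sign of the Slc6a2 estimate turned to 0.10 by DESeq2 and to 0.091 without old 3. For Tph2 the means were 5.49 ± 8.95 CPM in old and 3.29 ± 4.72 CPM in young mice (SD, n = 4 each), and the log2 fold change of 0.70 ± 1.12 (SE, adjusted p = 0.866 by edgeR) became -1.36 without old 1, -0.05 without young 1 and 2.03 without young 2.

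Th averaged 6.08 ± 1.52 CPM in old and 5.39 ± 0.265 CPM in young mice (SD, n = 4 each), and its log2 fold change of 0.17 ± 0.20 (SE, adjusted p = 0.793 by edgeR) had the smallest SE of the 7 and was 0.058 without old 3, 0.098 without young 2 and 0.26 without old 4. Slc5a7 and Prph had log2 fold changes of 0.43 ± 0.87 and -0.32 ± 0.52 (SE). Slc6a4 averaged 2.04 ± 3.88 CPM in old and 0.901 ± 1.80 CPM in young mice (SD, n = 4 each). The 2 members left out by the filter had, in a fit of all listed genes, log2 fold changes of 0.97 ± 0.90 for Chat and 0.53 ± 0.84 for Phox2a (SE, adjusted p = 0.738 and 0.867 by edgeR).

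**Figure D3:**
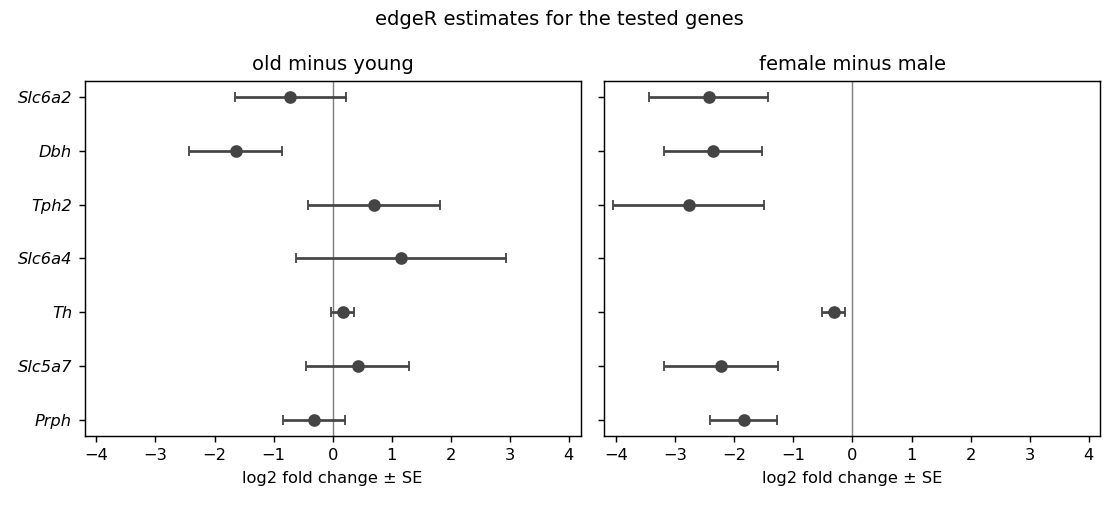
Log2 fold changes with their SE from edgeR's fit of all 8 libraries, old minus young (left) and female minus male (right), for the members that passed the filter on low counts. The age estimates lie on both sides of 0, Th at 0.17 has the shortest bar, and the sex estimates are all below 0. Slc6a4 is not drawn for sex because all 4 females had 0 counts.

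Between the sexes, the estimates of the 7 tested members were all lower in females, and none passed. Over all 14191 genes tested, 6679 estimates were lower in females. Slc6a2 averaged 3.54 ± 2.95 CPM in females and 20.3 ± 15.3 CPM in males (SD, n = 4 each), a log2 fold change of -2.44 ± 1.01 (SE, adjusted p = 0.930 by edgeR). Prph averaged 0.677 ± 0.225 CPM in females and 2.52 ± 1.45 CPM in males, and Dbh 0.494 ± 0.485 CPM in females and 2.69 ± 2.47 CPM in males (SD, n = 4 each). Their log2 fold changes were -1.84 ± 0.56 and -2.36 ± 0.83 (SE), and they were the 2 members with an unadjusted p under 0.05 by edgeR, which 4.76% of all genes tested had. Tph2 and Slc5a7 had log2 fold changes of -2.77 ± 1.28 and -2.23 ± 0.96, and Th -0.32 ± 0.20 (SE). Without old 1 the estimates were -1.59 for Tph2 and -1.35 for Slc5a7, and that of Dbh was -3.58 without old 2 and -1.57 without young 4. The Th estimate was -0.21 without old 3. The signs are not separate observations: apart from Th, most counts of each tested member came from 2 or 3 of the male libraries old 1, young 1 and young 2, while the male old 3 was low. Which members had an unadjusted p under 0.05 depended on the test. By DESeq2's Wald test it was 0.184 for Dbh, 0.00584 for Prph, 0.0332 for Slc6a2, 0.0132 for Tph2, 0.0441 for Slc6a4 and 0.0396 for Slc5a7. None passed after adjustment, and the share of all genes under 0.05 by that test is not given here.

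Over all genes tested, 6 passed for sex, or 0.0423%, none of them a member by edgeR and none by DESeq2. The median log2 fold change was -2.36 over the 7 members and 0.01 over all genes tested, and the female and male values of every tested member overlapped (2.25% of all genes tested had none). Without old 3 the count of genes past the threshold was 46, among them Slc5a7 (-2.83, adjusted p = 0.0237) and Prph (-2.25, adjusted p = 0.0341), each by edgeR. Both had missed it with all 8 libraries, at an adjusted p = 0.930 by edgeR. Old 3 was the male lowest in both, with 0.314 CPM of Slc5a7 and 0.471 CPM of Prph. Leaving it out therefore widens the gap between the sexes, and these 2 results are no separate support for a sex difference. For the interaction of age and sex, 0 genes passed by edgeR, or 0%, while 326 had an unadjusted p under 0.05, and 1 gene that is not a member passed by DESeq2. Among the 7 members only Dbh had an unadjusted p under 0.05, with an interaction of 4.30 ± 1.67 on the log2 scale (SE, adjusted p = 1 by edgeR). Dbh had 9 and 0 counts in the old males and 8 and 2 in the old females. It had 36 and 24 counts in the young males and 3 and 0 in the young females. The size of this estimate therefore rests on counts near 0.

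The 12 other genes of monoamine synthesis, storage and breakdown were even in their sum, which came to 228 to 275 CPM in old and 227 to 299 CPM in young mice. Of the 10 tested, 0 passed for age in either direction, by edgeR, 1 had an unadjusted p under 0.05, and the median log2 fold change was 0.09. That gene was Maob, the monoamine oxidase of glia and serotonergic neurons, with 11.4 ± 3.29 CPM in old and 6.39 ± 1.48 CPM in young mice (SD, n = 4 each), a log2 fold change of 0.83 ± 0.24 (SE, adjusted p = 0.229 by edgeR). Qdpr, which regenerates the tetrahydrobiopterin cofactor of Th and Tph2, had a log2 fold change of -0.17 ± 0.12 (SE). Ddc and Slc18a2, chosen once their values were known, are the decarboxylase that makes dopamine and serotonin and the vesicular monoamine transporter. Ddc had 58, 24, 8 and 17 counts in old mice, against 19, 23, 17 and 9 counts in young mice. Slc18a2 had 200, 146, 104 and 100 counts in old mice, against 130, 191, 91 and 100 counts in young mice, so both were highest in old 1 and varied less than Tph2.

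Of the 6 genes in the list of noradrenergic and serotonergic regulators 5 were tested, with none past the threshold by edgeR and none with an unadjusted p under 0.05. Gata2, a GATA factor that acts early in serotonergic neurons, had 5.69 ± 0.884 CPM in old and 3.93 ± 1.19 CPM in young mice (SD, n = 4 each). Fev, the ETS factor of serotonergic neurons, had 2.84 ± 0.527 CPM in old and 2.22 ± 0.419 CPM in young mice (SD, n = 4 each). It was found at 11 to 23 counts in every library, including those with 0 counts of Slc6a4. Gata3, also used by serotonergic neurons, and Slc10a4, a vesicle protein of cholinergic and monoaminergic neurons, were likewise chosen once their values were known. Gata3 had 33, 3, 0 and 11 counts in old mice, against 9, 33, 5 and 3 counts in young mice. Slc10a4 had 37, 5, 1 and 2 counts in old mice, against 19, 28, 4 and 0 counts in young mice. Gata3 was highest in old 1 and young 2, and Slc10a4 in old 1, young 1 and young 2.

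Of the 10 other cholinergic and motor neuron genes 9 were listed and 4 tested, with a median log2 fold change of -0.11 for age, and none passed or had an unadjusted p under 0.05. Ache, acetylcholinesterase, had 63.6 ± 7.11 CPM in old and 72.7 ± 8.27 CPM in young mice (SD, n = 4 each), and Prima1, which anchors it in the membrane, had 2.54 ± 0.738 CPM in old and 2.29 ± 1.03 CPM in young mice (SD, n = 4 each).

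The receptors for these transmitters were also tested, and none of the 4 lists held a gene past the threshold for age by edgeR. Over all 14191 genes tested, 7289 had a log2 fold change below 0, and 11% had an unadjusted p under 0.05 by edgeR. Genes of a list share the same 8 libraries, so their signs are not separate observations. The log2 fold change was below 0 in 7 of 8 tested adrenoceptors (median -0.31), none of them with an unadjusted p under 0.05. Adrb1 and Adra1b, beta-1 and alpha-1B adrenoceptors, stood at -0.39 ± 0.21 and -0.36 ± 0.21 (SE). It was below 0 in 7 of 9 tested acetylcholine receptor genes (median -0.28), and 3 had an unadjusted p under 0.05. Chrna3, a nicotinic alpha subunit, had 2.33 ± 0.867 CPM in old and 4.46 ± 1.54 CPM in young mice, and Chrnb2, a nicotinic beta subunit, 125 ± 12.1 CPM in old and 151 ± 17.6 CPM in young mice (SD, n = 4 each). Their log2 fold changes were -0.92 ± 0.34 and -0.27 ± 0.10 (SE, adjusted p = 0.336 and 0.344 by edgeR).

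For 6 of 9 tested serotonin receptors the log2 fold change was below 0 (median -0.054), and no unadjusted p was under 0.05. Htr2b and Htr5a, G protein-coupled serotonin receptors, stood at 0.49 ± 0.24 and 0.16 ± 0.15 (SE). For 2 of 3 tested dopamine receptors it was below 0 (median -0.17), and 1 had an unadjusted p under 0.05, namely Drd4 at 0.78 ± 0.31 (SE, adjusted p = 0.387 by edgeR). Drd2, the D2 receptor, stood at -0.64 ± 0.57 (SE).

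Markers of neighbouring regions varied over the same libraries, in part as the members did. Hox genes are expressed in the hindbrain behind the territory that forms the cerebellum. Of the 22 in the list 18 were listed, none with enough counts to be tested, and they summed to 3.69, 2.16, 1.57 and 2.68 CPM in old mice, against 2.79, 2.04, 2.38 and 0.561 CPM in young mice. Old 1 was highest and young 4 lowest, as for Slc5a7, but the libraries between did not keep the order of Slc5a7. Young 2, with 7.20 CPM of Slc5a7, had a lower Hox sum than old 2, old 4, young 1 and young 3. These sums rest on 4 to 23 counts per library. The 4 listed midbrain genes summed to 9.29, 0.719, 0.157 and 5.20 CPM in old mice, against 5.42, 11.3, 3.57 and 3.78 CPM in young mice, so old 1 and young 2 were highest, as for Tph2. The other libraries did not keep the order of Tph2. Young 1 and old 4, next in that sum, had 0.775 and 1.26 CPM of Tph2, and old 2 and old 3, lowest in it, 1.01 and 0.785 CPM. Tfap2d, a factor of the dorsal midbrain, made up most of that sum in all libraries but old 2, with a log2 fold change for age of -0.73 ± 0.79 (SE), while Pax7, another dorsal midbrain factor, stood at -0.45 ± 0.71 (SE).

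The 6 genes of hindbrain glycinergic and nuclear neurons, which cerebellar neurons also express, summed to 638, 474, 509 and 583 CPM in old mice, against 676, 737, 575 and 470 CPM in young mice. The highest 3 sums were those of young 2, young 1 and old 1, the libraries rich in Slc6a2. Nefh, the heavy neurofilament, was highest in the same 3 libraries, with 259, 187, 192 and 221 CPM in old mice, against 293, 272, 200 and 187 CPM in young mice. Nefh and Slc32a1, the vesicular GABA and glycine transporter, had log2 fold changes for age of -0.13 ± 0.12 and -0.11 ± 0.10 (SE). Slc17a6 and Pou4f1 of this list were also highest in old 1, young 1 and young 2, but the rest were not. Slc6a5 was lowest in old 1 (39.9 CPM), and Slc32a1 was highest in young 3 (255 CPM). Glra1 was higher in old 4 (10.4 CPM) than in old 1 (10.1 CPM). Of the peripheral nerve Schwann cell list 5 genes were listed, with summed counts of 14 to 32 in old and 18 to 34 in young mice, and of the pineal list 4, with summed counts of 5 to 12 in old and 2 to 13 in young mice. Ncmap and Prx, genes of myelinating Schwann cells, had log2 fold changes of 0.40 ± 0.46 and -0.28 ± 0.38 (SE). The 6 oligodendrocyte genes summed to 2385 to 3199 CPM in old and 2319 to 3945 CPM in young mice, highest in young 2. Whether the members' transcripts came from tissue next to the cerebellum or from cells and axons within it was not tested.

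**Figure D4:**
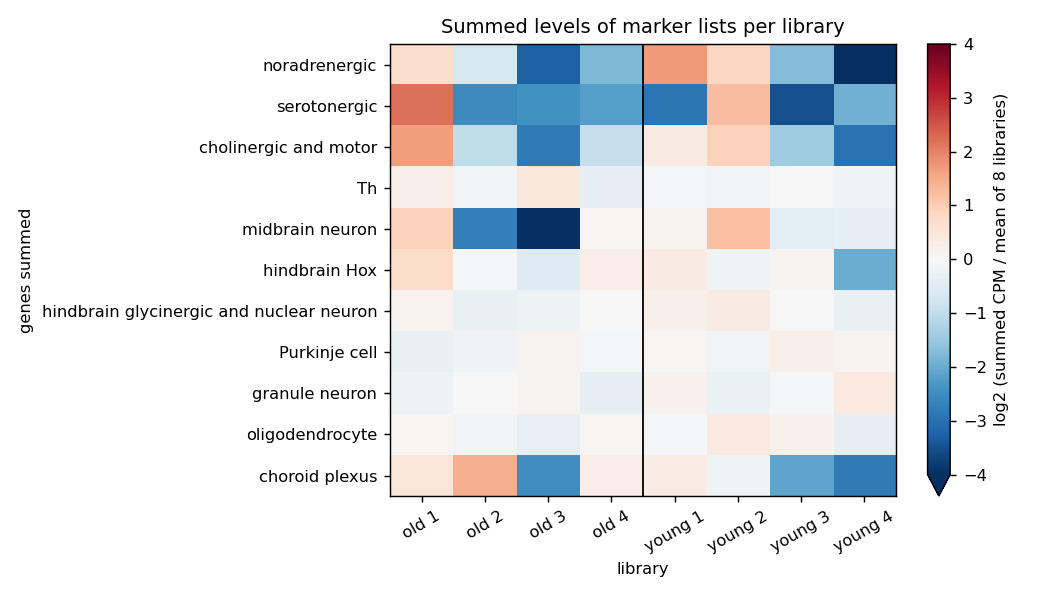
Summed CPM of each gene list in a library, as log2 of its ratio to the mean of the 8 libraries, with old libraries left of the black line and young ones right of it. Values below -4 are drawn in the last colour. The noradrenergic, serotonergic, cholinergic, midbrain and choroid plexus rows vary widely, while the rows for Th and for Purkinje and granule neurons stay near 0.

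The genes whose log2 CPM most resembled each group of members over the 8 libraries were sought among 13226 tested genes (mean log2 CPM 1 or more), and their r describes a choice of the highest values. For the summed noradrenergic genes they were Tacc3, Rhov and Ewsr1, with Pearson r of 0.96, 0.95 and 0.94 and Spearman rho of 0.98, 0.90 and 0.81. Their levels ranged less widely than Slc6a2, and Tacc3 had 2.04, 2.68, 3.45 and 3.53 CPM over the old mice, against 1.96, 2.55, 3.76 and 4.34 CPM over the young mice, each in rising order. For the serotonergic sum they were Rpl36, Zwint and Hsf4, with r of 0.96, 0.96 and 0.94. For the cholinergic and motor sum they were Tenm4, Zdhhc22 and Irs4, with r of 0.98, 0.98 and 0.97. Irs4, an insulin receptor substrate, had 11.5, 1.58, 0.628 and 2.05 CPM in old mice, against 3.72, 9.71, 2.38 and 0.420 CPM in young mice, highest in old 1, young 2 and young 1 as Slc5a7 was. For Th they were Camk1, Selenoh and Rnf24, with r of 0.99, 0.89 and 0.89.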

How the data were processed

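Total RNA of frozen cerebellum was sequenced from 8 mice after ribosomal RNA depletion, per the labels' protocols. The series' design text names liver and other ages. Each sample's own labels were followed for its tissue, sex and age. The authors deposited raw counts per gene, 1 table per library, per the file headers. The submitters' processing notes name Trimmomatic 0.39, STAR 2.7.5b and featureCounts, with the builds GRCm38 and mm10. Dates had replaced 24 gene names in 7 of the libraries, and rows were matched to the table that kept the names. Not given in the sources used here are the annotation, the strand setting and the handling of multi-mapped reads. No pair of libraries of an age agreed within sampling noise (chi-square test).

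Genes were filtered with filterByExpr (minimum count 10 over the age-by-sex cells) and scaled with TMM. Tests used edgeR 4.0.16 in R 4.3.3, quasi-likelihood with age and sex, with Benjamini-Hochberg adjustment over all 14191 genes and a threshold of 0.05. Each SE was obtained by dividing the size of the log2 fold change by the root of F. A prior count of 2 went into log2 CPM. The scripts were tested on simulated counts. DESeq2 1.42.0, other filters and scaling, the replicate block and left-out libraries were alternatives. Correlations were added after the data were seen. Lengths and positions are from GENCODE M21 (GRCm38). Members, lists and tests were chosen with earlier results of these data known. Beside the members, 2 genes per list with the smallest p for age, any past the threshold and the 3 genes most like each group are named.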

Additional observations from a re-analysis of the deposited data

Results flagged for a closer look

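Of 62 combinations of a gene or list with an age group, 9 had a library whose distance to the nearest other exceeded Dixon's 95% limit for 4 samples. For normally distributed values, chance gives that in about 1 of 20 groups. Many of these CPM values come from low, skewed counts, so 9 of 62 cannot be set against that rate. With 0 counts in the other 3 libraries, as for Slc6a4 in young mice, any count passes. Several of the 9 share a library and genes. In old mice, old 1 stood apart for Tph2 with 18.9 CPM (0.785 to 1.26 CPM in the other 3), for Slc6a4 with 7.85 CPM (0 to 0.314 CPM) and for Slc5a7 with 12.3 CPM (0.314 to 2.05 CPM). Old 1 also stood apart in the sums of the serotonergic genes with 26.8 CPM, of the cholinergic and motor genes with 17.5 CPM and of all 9 members with 73.2 CPM. In young mice, young 2 stood apart for Tph2 with 10.3 CPM (0.511 to 1.54 CPM in the other 3), for Slc6a4 with 3.60 CPM (0 CPM in the other 3) and for the serotonergic sum with 13.9 CPM.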

How the results depend on the processing

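No member that could be tested passed for age in any alternative run: DESeq2 size factors, DESeq2's test, no filter, a filter of 50 counts in 4 libraries (which left only Slc6a2 of the members), no term for sex, the replicate block, each library left out, and old 2, old 3 and young 4 left out together. The count over all genes for age, 17, was 125 by DESeq2, 184 without old 2, old 3 and young 4, 1 with the replicate block, and 0 to 63 with a library left out, lowest without young 3 or young 4 and highest without old 2. It was 2 without old 1 or young 1, 8 without young 2 and 49 without old 3. The same-numbered libraries did not deviate together (correlations of 0.16, -0.22, -0.05 and -0.25). These values cannot exclude a pairing, because the deviations within an age sum to 0. Old 2 and young 2 differed in sex, as did old 3 and young 3. For sex the count of 6 ranged from 4 to 46 with a library left out, and that of members from 0 to 2, the highest of both without old 3. Old 3 was the male lowest in these 2 members, Slc5a7 and Prph. For the interaction DESeq2 called 1 gene. Estimates for age changed sign in 8 cases. With a library left out, the log2 fold change ranged from -1.22 to 0.091 for Slc6a2, -2.38 to -0.83 for Dbh, 0.058 to 0.26 for Th, -1.36 to 2.03 for Tph2, -2.32 to 6.15 for Slc6a4, -0.98 to 1.20 for Slc5a7 and -1.01 to 0.31 for Prph. The value of 6.15 has all young libraries left at 0 counts and depends on the prior count. Slc6a2 was at 0.10 by DESeq2, and Prph at 0.22 without old 2, old 3 and young 4. The cause of these shifts was not tested. All estimates for sex kept their direction under each alternative run, and with a library left out they ranged from -3.32 to -1.81 for Slc6a2, -3.58 to -1.57 for Dbh, -0.40 to -0.21 for Th, -3.37 to -1.59 for Tph2, -2.83 to -1.35 for Slc5a7 and -2.25 to -1.47 for Prph. An unadjusted p under 0.05 for age was also found by edgeR for Slc5a7, without old 3 (0.00952) and without old 2, old 3 and young 4 (0.00429), and, with the replicate block, for Slc6a4 (0.00142) and Dbh (0.0341). Old 3 was the old library lowest in Slc5a7. Unadjusted library totals moved no mean of the summed members by as much as 1 SD. Chat and Phox2a had too few counts for the main test, and no list of Hox or pineal genes could be tested at this depth.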

Other observations

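None of the tested genes of the tissue lists passed for age by edgeR, other than Prl. In the Purkinje cell list 10 of 11 tested genes had a negative log2 fold change, old minus young, with a median of -0.17, and 2 had an unadjusted p under 0.05, namely Gng13 at -0.41 ± 0.093 and Slc1a6 at -0.39 ± 0.15 (SE). In the granule neuron list 9 of 10 were negative with none under it, and Slc17a7 and Rbfox3 stood at -0.37 ± 0.17 and -0.27 ± 0.15 (SE). All 6 oligodendrocyte genes were negative with none under it, with Mog and Mag at -0.29 ± 0.14 and -0.29 ± 0.16 (SE). All 11 choroid plexus genes were positive, 1 of them, Calml4, under it at 0.87 ± 0.35, with Kcnj13 at 1.03 ± 0.58 (SE). All 5 tested liver genes were positive, 1 of them, Fga, under it at 3.04 (adjusted p = 0.332 by edgeR), with Apoa2 at 1.51 ± 0.82 (SE). Members of a list share their libraries, and old 2 alone held 84.1 CPM of the summed liver genes. Over all genes tested, 6902 estimates for age were positive and 7289 negative, and 11% had an unadjusted p under 0.05 by edgeR. Prl, the pituitary hormone prolactin, passed for age (adjusted p = 0.0101 by edgeR) and for sex (adjusted p = 0.00306 by edgeR), with 1, 52, 0 and 37 counts in old mice, against 0, 0, 1 and 2 counts in young mice, and its counts came almost wholly from the 2 old females.

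The deviations of libraries from their age mean, over the log2 CPM of all genes tested, were correlated for each old library with each young one. The highest values were 0.48 between old 1 and young 2 and 0.44 between old 3 and young 4. The lowest were -0.49 between old 1 and young 4 and -0.42 between old 3 and young 2. These were picked as the extremes, and deviations within an age sum to 0, so the values depend on each other. Old 1 and young 2 also held the highest Tph2, Slc6a4 and summed midbrain genes. Growth hormone (Gh), a gene of the anterior pituitary, had 69 counts in old 1, which also held the highest sum of the 9 members, and 0 to 12 counts in the other libraries.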
